A study of Mus musculus with 6 samples.

Results

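The genes described here are 38 mouse genes that write, erase or read methyl marks on histones, taken by name from a gene count table of 54532 genes: lysine methyltransferases, lysine demethylases, the corepressor Trim28 and the 3 HP1 proteins. All 38 were found, and 37 had enough counts to be tested. They were measured by RNA-seq in BV2, an immortalised line of mouse microglia, with 3 libraries labelled SMEK1 knockdown and 3 labelled WT. SMEK1 is a regulatory subunit of protein phosphatase 4, and its gene is listed as Ppp4r3a. Both groups were grown in serum-containing DMEM with antibiotics, and no stimulus or time is given. The design text speaks of knockdown derivatives for both groups. Not given in the sources used here are how the knockdown was made and whether the WT cells carry a control construct.

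Methyl groups on the tail of histone H3 are placed and removed by enzymes that each prefer certain lysines. Methylation of lysine 9 (H3K9) marks silent chromatin and is bound by the HP1 proteins. Methylation of lysine 27 (H3K27) is laid down by Polycomb repressive complex 2, and methylation of lysines 4, 36 and 79 is found at active promoters, enhancers and transcribed gene bodies. Demethylases of the KDM families reverse most of these marks, with oxygen and oxoglutarate, or with a flavin in the KDM1 family. In microglia and macrophages these enzymes are known for setting how strongly inflammatory genes respond, with KDM6B as the best known inducible member. The title of the series concerns lactylation of H3 lysine 9, the residue that the SUV39H, EHMT, SETDB, KDM3 and KDM4 enzymes methylate or demethylate.

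The 3 knockdown libraries held 18627425 to 21131557 counts each and the 3 WT libraries 18036591 to 18708438, and levels are given as CPM, counts relative to a library total that was first adjusted for composition by edgeR's TMM method, on which a single count weighed 0.0444 to 0.0597. Ppp4r3a stood at 2.51, 5.42 and 4.25 CPM across the knockdown libraries (A, B, C) and at 18.1, 13.5 and 15.3 CPM across WT, so every library labelled knockdown was below every WT library (26.1% of the WT level; log2 fold change -1.94, SE 0.24; quasi-likelihood test in edgeR, adjusted p = 8.22e-05). Of 13 microglia and macrophage markers, Csf1r, Trem2, Cd68 and Spi1 averaged above 250 CPM in both groups, and 7 of the 11 tested were called (3 higher, 4 lower), while P2ry12 averaged 0 and 0.0559 CPM (knockdown, then WT) and Cx3cr1 0.460 and 0.224 CPM. Astrocyte, fibroblast and T cell markers summed to under 1 CPM in every library. The 7 oligodendrocyte markers summed to 7.15 to 7.58 CPM in the knockdown and 2.53 to 2.86 CPM in WT, nearly all of it Mbp, with Mog, Olig1 and Olig2 at 0. The 6 endothelial markers summed to 38.7 to 54.7 and 19.9 to 28.4 CPM, nearly all of it Flt1, with Cdh5 and Cldn5 at 0, and the 7 neuronal markers to 0.889 to 1.81 and 0.716 to 1.08 CPM, with Map2, Syt1, Snap25 and Gad1 at 0. Nothing in the labels ties libraries to separate cultures: the p-values cover the spread among these libraries alone, which may be technical, and other differences between the cultures cannot be told apart from the knockdown.

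Most of the histone methylation genes were not called as different between the groups. At an adjusted p under 0.05, 9 of the 37 were called, 7 lower and 2 higher in the knockdown, which is 24.3% against 40.1% of all 12269 genes tested. Among all genes 19.6% were called lower and 20.5% higher. The lower members were the demethylase gene Kdm4a, the methyltransferase genes Kmt2c, Setdb1, Setdb2, Setd2 and Setd1a, and the corepressor gene Trim28. The higher members were Ezh1, a Polycomb methyltransferase, and Kdm6b, an H3K27 demethylase. Fold changes ran from -0.92 for Kdm4a to 0.61 for Ezh1 on the log2 scale, with a median of -0.10, against 0.01 over all genes. The median size of change, whatever its sign, was 0.20 for the members and 0.33 for all genes. Of the members 6 differed by at least 1.5-fold and 0 by 2-fold, against 26.4% and 9.93% of all genes. The libraries of the groups did not overlap for 14 members (37.8%), against 50.9% of all genes.

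The count of called members varied with single libraries. It was 5 without knockdown C and 4 without WT C. Kdm4a, Setdb1 and Ezh1 were called under each of 19 other ways of processing the data. With library totals in place of TMM the median of all genes shifted by 0.16 on the log2 scale, and 5 members were then higher and 3 lower. Over all genes that scaling took the share of calls that were higher from 51.1% to 71.3%. In these cultures less RNA of a gene per cell and fewer cells expressing it cannot be told apart.

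**Figure D1:**
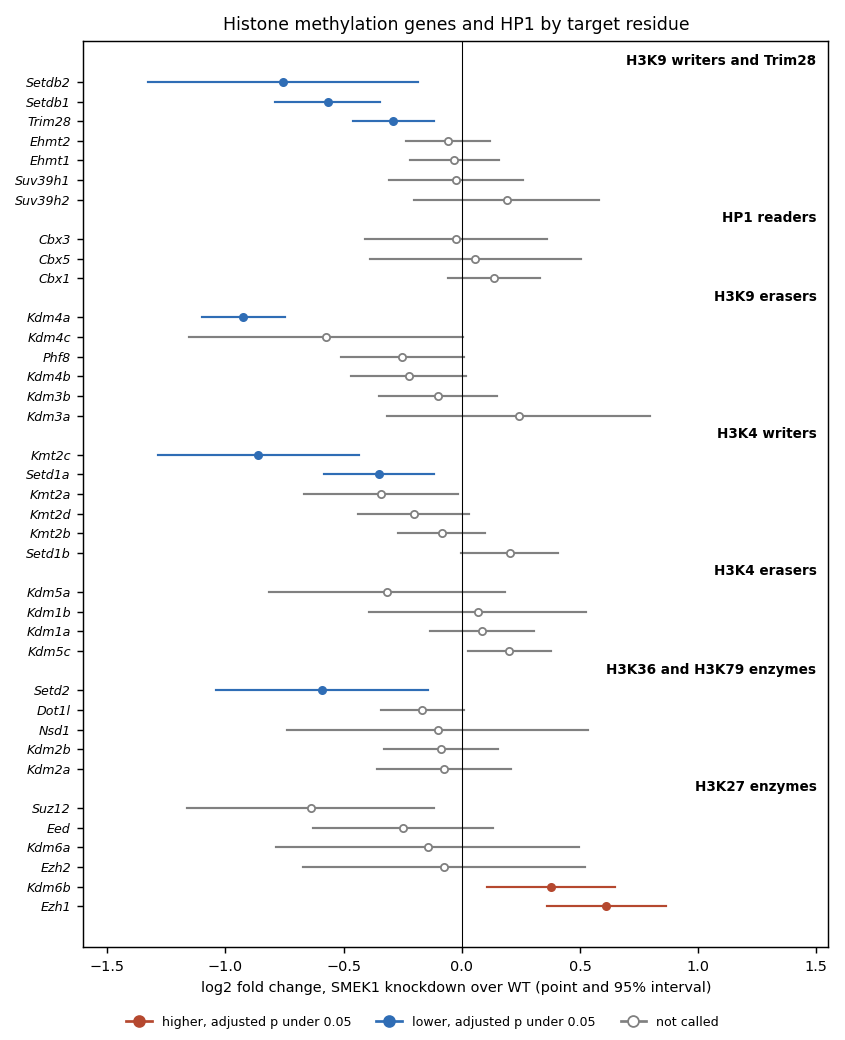
Log2 fold change of the 37 tested genes, SMEK1 knockdown over WT (n = 3 libraries each), grouped by target residue; points are edgeR estimates, bars their 95% intervals, and filled colour marks an adjusted p under 0.05. The 7 lower genes lie in the H3K9, H3K4 and H3K36 groups and both higher genes in the H3K27 group, where 4 of 6 estimates are negative.

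The promoters of the 3 genes called under all of those settings are shown so that the regulatory sequence stands beside the values. Each runs 5′ to 3′ on the strand of its gene, from 250 bases before to 50 after the start, as RefSeq gives it for GRCm38.p6: Kdm4a at chr4:118179994-118180293, Setdb1 at chr3:95357153-95357452 and Ezh1 at chr11:101226414-101226713, each on the minus strand. Capitals mark matches on either strand to 5 motifs: the GC box GGGCGG, the CCAAT box CCAAT, the ETS motif CCGGAAG, the E-box CACGTG and the full cAMP response element TGACGTCA.
Kdm4a: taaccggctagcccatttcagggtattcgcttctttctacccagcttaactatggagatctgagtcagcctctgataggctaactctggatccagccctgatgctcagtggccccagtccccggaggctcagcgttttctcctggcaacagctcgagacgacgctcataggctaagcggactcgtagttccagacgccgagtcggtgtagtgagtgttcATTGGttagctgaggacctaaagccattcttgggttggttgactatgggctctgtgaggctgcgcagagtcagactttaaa
Setdb1: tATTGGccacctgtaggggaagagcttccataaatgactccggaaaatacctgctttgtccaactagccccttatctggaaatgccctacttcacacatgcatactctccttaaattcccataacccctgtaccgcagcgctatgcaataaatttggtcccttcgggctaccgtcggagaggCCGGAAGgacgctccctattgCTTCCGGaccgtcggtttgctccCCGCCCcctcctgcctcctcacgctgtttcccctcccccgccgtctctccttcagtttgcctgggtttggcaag
Ezh1: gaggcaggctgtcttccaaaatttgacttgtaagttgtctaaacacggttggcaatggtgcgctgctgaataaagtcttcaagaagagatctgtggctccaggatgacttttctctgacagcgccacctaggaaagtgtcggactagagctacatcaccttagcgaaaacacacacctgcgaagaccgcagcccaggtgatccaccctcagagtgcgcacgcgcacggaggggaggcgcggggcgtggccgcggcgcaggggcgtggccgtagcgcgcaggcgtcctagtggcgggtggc

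The Kdm4a promoter held 1 CCAAT box, and the Setdb1 promoter held 2 ETS motifs, 1 GC box and 1 CCAAT box. The Ezh1 promoter held no match to the 5 motifs and was the richest of the 3 in CpG, with 23 sites against 13 and 15. RefSeq promoters matched 30 of the 38 genes, 8 of them called. A GC box was found in 22 of the 30 genes and in 35.7% of all 32851 promoters, and a CCAAT box in 13 genes and 37.4% of promoters. ETS motifs were found in 3 genes and 8.9% of promoters, an E-box in 4 and 7.2%, and a full cAMP response element in 2 and 1.8%. Genes with several listed starts counted once if any of their promoters held the motif. The percentages instead count each promoter by itself, whether or not its gene was tested. The counts of genes and the percentages of promoters are thus on different units, and no enrichment was tested. Among the 8 called genes, 4 held a GC box and 3 a CCAAT box. A match is a description of letters in this window and says nothing of binding.

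Among the listed H3K9 methyltransferases, which form the SUV39H, EHMT and SETDB pairs, Setdb1 was lower in the knockdown, Setdb2 was called lower but lost its call under 10 of 19 alternatives, and the other pairs were not called. Setdb1 encodes the methyltransferase that KRAB zinc finger proteins recruit through Trim28 to silence retroviral repeats. Its level was 36.6, 43.8 and 35.7 CPM over knockdown A to C and 59.8, 53.4 and 58.8 CPM over WT A to C. Every knockdown library was below every WT library, with a log2 fold change of -0.57 (edgeR, SE 0.10, adjusted p = 0.0010), which is 67.5% of the WT level. Trim28, the scaffold between KRAB proteins and SETDB1, had 355, 314 and 323 CPM against 406, 403 and 404 CPM. The groups did not overlap, and the fall was small, at -0.29 (SE 0.08, adjusted p = 0.0113, edgeR). That call was lost without knockdown C (adjusted p = 0.0703), without WT C (0.0521) and with library totals (0.0998).

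Setdb2, a relative of Setdb1, was expressed at a low level, with 1.88, 3.29 and 2.17 CPM against 4.97, 3.52 and 3.94 CPM in WT. The groups did not overlap, but knockdown B and WT B lay close together. Its log2 fold change was -0.76 (SE 0.26, adjusted p = 0.0375, edgeR), and adjusted p-values under the alternatives ran from 0.0115 to 0.217. Library totals ended the call (0.119), as did leaving out WT A (0.123), WT C (0.0764), knockdown A (0.109) or knockdown C (0.128). Setdb2 lies on chromosome 14 from 59402009 to 59440884 in GRCm38. Of the 287 other tested genes of that chromosome starting past 40 Mb, 140 (48.8%) were called lower, with a median log2 fold change of -0.39, against 19.8% of 121 genes before 40 Mb. What part of the Setdb2 value goes with its neighbourhood was not tested.

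Ehmt2, which encodes the H3K9 dimethyltransferase G9a, was the most abundant methyltransferase of the set per gene length. Its CPM was 408, 351 and 368 in the knockdown and 391, 396 and 386 in WT, and the knockdown libraries lay on both sides of WT (log2 fold change -0.06, 95% interval -0.23 to 0.12). Its partner Ehmt1 differed less still, at 40.4 to 40.5 CPM in the knockdown and 40.2 to 42.3 CPM in WT (-0.03, 95% interval -0.22 to 0.16). Suv39h1 and Suv39h2 make the trimethyl mark of pericentromeric heterochromatin. Suv39h1 had 19.3 to 22.4 against 18.2 to 23.9 CPM and a log2 fold change of -0.02 (95% interval -0.31 to 0.26). Suv39h2 had 5.24 to 6.04 against 4.77 to 5.19 CPM, without overlap, and a change of 0.19 (95% interval -0.20 to 0.58) that was not called (adjusted p = 0.423, edgeR). Of these 7 genes 3 were called (42.9%, against 40.1% of all genes), all lower, and 1 was lower without knockdown C or without WT C. Exons of opposite-strand genes overlap some members. Cers2, with 35667 counts over the 6 libraries against 5479 for Setdb1, covers 1.09% of the exonic bases of Setdb1. Dclre1c, with 413 counts against 622 for Suv39h2, covers 8.10% of those of Suv39h2. Whether strand was used in counting is not stated, so reads in such overlaps cannot be told apart. What part of the Setdb1 counts and of its change such reads make up was not tested.

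HP1 proteins bind methylated H3K9 and compact the chromatin around it. Of the 3 HP1 genes 0 were called by edgeR, against 40.1% of all genes, 0 at an unadjusted p under 0.05, and 0 by DESeq2 or limma-voom. With library totals Cbx1 was called higher (log2 fold change 0.30, adjusted p = 0.0207, edgeR). Cbx1, which encodes HP1 beta, was the steadiest, with 36.5, 37.3 and 37.6 CPM against 33.8, 33.1 and 34.4 CPM in WT. The groups did not overlap, though the difference was small (0.14, 95% interval -0.06 to 0.33, adjusted p = 0.242, edgeR). Cbx5, which encodes HP1 alpha, varied most of the 3 within groups, from 24.7 to 45.9 CPM in the knockdown and from 26.7 to 40.5 CPM in WT (0.06, 95% interval -0.39 to 0.50). Cbx3, which encodes HP1 gamma, ranged from 11.6 to 19.6 and from 15.5 to 17.3 CPM (-0.02, 95% interval -0.41 to 0.36). For Cbx5 and Cbx3 the intervals cover no 1.5-fold change but are too wide to show that the groups were alike.

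Among demethylases of H3K9, Kdm4a had the largest fall of all members. KDM4 enzymes remove trimethyl marks from H3K9 and H3K36. Kdm4a was at 58.8, 56.9 and 53.9 CPM over knockdown A to C, against 101, 114 and 106 CPM over WT A to C. The groups were far apart relative to their spread, with 52.7% of the WT level left (log2 fold change -0.92, SE 0.08, adjusted p = 5.34e-06, edgeR). Over the alternatives its adjusted p was at most 0.0010, and with library totals the change was -0.76. The gene lies on chromosome 4 from 118136957 to 118180043, on the minus strand.

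Kdm4b, its closest paralogue in level, was at 44.8, 35.2 and 34.6 CPM, against 44.4, 45.4 and 43.9 CPM in WT. Knockdown A sat with the WT libraries and the other two below them, so that the gene was not called (-0.22, adjusted p = 0.128, edgeR) but was called without knockdown A (-0.35, adjusted p = 0.00978). The change was -0.15 without knockdown B or without knockdown C (adjusted p = 0.344 and 0.424) and -0.07 with library totals (0.617). Kdm4c, at 2.19 to 3.43 against 3.16 to 5.61 CPM, had a change of -0.57 (95% interval -1.15 to 0.0032, adjusted p = 0.105, edgeR). It was called without WT B (adjusted p = 0.039), while without WT A the change was -0.37 (0.337) and without both A libraries -0.20 (0.572). Phf8, an X-linked demethylase of H3K9 and H4K20, had 18.7 to 23.0 against 23.8 to 26.8 CPM without overlap, at -0.25 (adjusted p = 0.114, edgeR). Kdm3b had 33.2 to 41.6 against 35.2 to 41.7 CPM (-0.10, 95% interval -0.35 to 0.15). Kdm3a, a demethylase of mono- and dimethyl H3K9 that hypoxia induces, had 8.98 ± 2.75 against 7.60 ± 2.23 CPM (SD, n = 3, log2 fold change 0.24, 95% interval -0.32 to 0.80). It was called higher without both A libraries (0.66, adjusted p = 0.0397, edgeR), while without knockdown B the change was -0.0011 (0.997). Of the 6 genes 1 was thus called (16.7%, against 40.1% of all genes), and 2 were lower without knockdown A or without WT B.

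**Figure D2:**
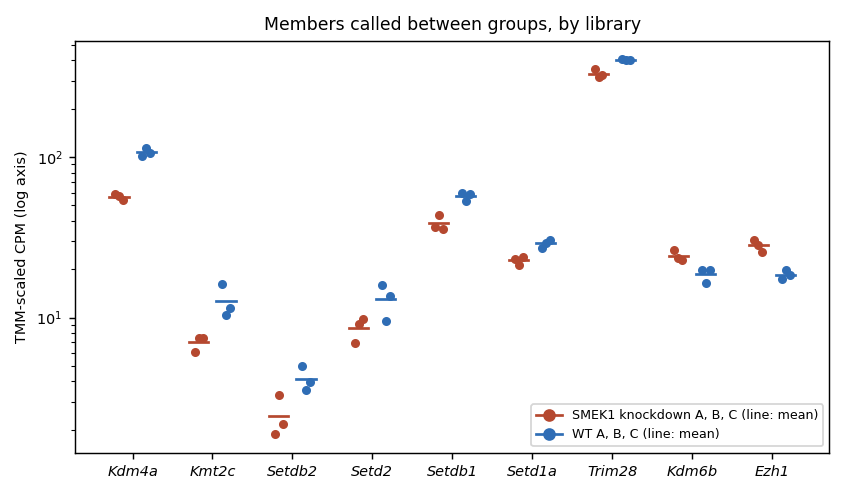
TMM-scaled CPM on a log axis for the 9 called genes, each point 1 library (SMEK1 knockdown A, B, C and WT A, B, C from left to right) and each line a group mean. The groups overlap for Setd2, where knockdown C reached 9.85 CPM and WT B 9.55 CPM, and for none of the other 8 genes.

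H3K4 methyltransferases work as catalytic subunits of COMPASS complexes, with KMT2C and KMT2D acting at enhancers, KMT2A and KMT2B at selected promoters and SETD1A and SETD1B at most active promoters. Kmt2c was lower in the knockdown, with 6.11, 7.42 and 7.45 CPM against 16.2, 10.4 and 11.5 CPM in WT. The groups did not overlap, and WT A stood above the other WT libraries. Its level fell by 0.86 on the log2 scale (edgeR, SE 0.19, adjusted p = 0.0043), to 55.1% of the WT level. That call was lost with limma on log2(FPKM + 1) without a filter (adjusted p = 0.0815). Setd1a had 23.1, 21.1 and 24.0 CPM against 27.2, 29.4 and 30.4 CPM, again without overlap, at -0.35 (SE 0.11, adjusted p = 0.0213, edgeR).

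The Setd1a call was lost without knockdown B (adjusted p = 0.0735), WT B (0.0581) or WT C (0.0993) and with library totals (0.134). Exons of a transcript model named Gm49388, on the same strand and with 0 counts, cover 51.8% of the exonic bases of Setd1a. Its paralogue Setd1b pointed the other way, with 40.2 to 47.1 CPM in the knockdown and 37.3 to 37.9 CPM in WT. There the groups did not overlap either, but the change of 0.20 was not called (95% interval -0.0020 to 0.41, adjusted p = 0.106, edgeR; 0.0477 without knockdown A, 0.0393 with a correction for gene length and 0.0108 with library totals). Kmt2d, close to Kmt2b in FPKM, with the order of the pair differing between libraries, had 107, 131 and 126 CPM against 153, 119 and 147 CPM. Knockdown B and C lay between WT B and the other WT libraries (-0.20, 95% interval -0.44 to 0.03, adjusted p = 0.153, edgeR). It was called without WT B (-0.31, adjusted p = 0.0339), while the change was -0.12 (0.434) without knockdown A, -0.05 (0.687) without both A libraries and -0.05 (0.792) with library totals. With a correction for gene length its sign turned (0.06, adjusted p = 0.606).

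Kmt2b and Kmt2a completed the group. Kmt2b had 55.8 to 63.4 against 59.6 to 64.0 CPM (-0.09, 95% interval -0.27 to 0.10). Kmt2a, the gene known for leukaemic fusions, had 23.4 to 31.5 against 29.6 to 42.7 CPM (-0.34, edgeR across all genes, unadjusted p = 0.0419, adjusted p = 0.0893). It was called without knockdown B (adjusted p = 0.0465) or without WT B (0.0342). Its change was smaller without knockdown A (-0.23, adjusted p = 0.278), without WT A (-0.18, 0.339), without both A libraries (-0.07, 0.652), with library totals (-0.19, 0.433) and with a correction for gene length (-0.13, 0.283). Of the 6 H3K4 methyltransferase genes 2 were called (33.3%, against 40.1% of all genes), both lower, and 1 was lower without WT C.

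Of 4 tested H3K4 demethylases 0 were called by edgeR (against 40.1% of all genes), 1 had an unadjusted p under 0.05, and 0 were called by DESeq2 or limma-voom. That gene was Kdm5c, an X-linked demethylase of trimethyl H3K4, at 173, 163 and 159 CPM against 139, 137 and 155 CPM in WT. Knockdown C and WT C lay close together, and the groups did not overlap (0.20, 95% interval 0.03 to 0.38, adjusted p = 0.0656, edgeR; 0.0029 with library totals and 0.0331 with a correction for GC content). Kdm1a, which encodes the flavin demethylase LSD1, had 35.4 to 40.3 against 33.5 to 38.9 CPM (0.09, 95% interval -0.13 to 0.30). Kdm1b had 3.79 to 4.89 against 3.52 to 4.70 CPM (0.07, 95% interval -0.39 to 0.53), and Kdm5a 5.17 to 8.36 against 6.98 to 11.3 CPM (-0.31, 95% interval -0.81 to 0.18). Exons of the antisense neighbour Dek cover 9.19% of Kdm1b. Kdm5b had 0 counts in all 6 libraries, which allows up to 3 counts over a group, or 0.0470 CPM for the knockdown libraries and 0.0574 CPM for WT. That limit covers counting error only, and it holds for reads assigned to Kdm5b by the authors' counting, which is not described: whether the gene is silent or its reads were not assigned cannot be told apart.

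Among enzymes of H3K36 and H3K79, Setd2 was lower. SETD2 makes trimethyl H3K36 behind elongating RNA polymerase. Its CPM was 6.95, 9.11 and 9.85 in the knockdown and 15.9, 9.55 and 13.6 in WT, so that WT B fell among the knockdown libraries. The log2 fold change of -0.59 (SE 0.21, adjusted p = 0.0381, edgeR) was lost on leaving out any library but WT B, with adjusted p-values of 0.0506 to 0.141, and of 0.159 with library totals and 0.251 without both A libraries. Dot1l, the H3K79 methyltransferase gene, had 112, 99.6 and 101 CPM against 113, 123 and 114 CPM. Knockdown A stood just below the WT libraries (-0.17, 95% interval -0.34 to 0.01, adjusted p = 0.117, edgeR; 0.0357 without knockdown A). With library totals the Dot1l change was -0.01 (adjusted p = 0.922).

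Nsd1, an H3K36 dimethyltransferase gene, was the lowest of the expressed members per length, with 2.30 to 4.89 against 2.98 to 5.02 CPM (-0.10, 95% interval -0.74 to 0.54). The H3K36 demethylase genes Kdm2a and Kdm2b had 26.3 to 31.6 against 25.5 to 35.2 CPM and 28.4 to 34.2 against 30.8 to 36.3 CPM. Both intervals lay within -0.36 to 0.21, which covers no 1.5-fold change. Exons of the antisense neighbour Rnf34, with 5753 counts over the 6 libraries, cover 5.77% of Kdm2b.

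H3K27 enzymes held both higher members. Ezh1 encodes the catalytic subunit of Polycomb repressive complex 2 found in resting cells, and Ezh2 its counterpart in dividing cells. Ezh1 reached 30.6, 28.5 and 25.7 CPM over knockdown A to C, against 17.3, 19.7 and 18.5 CPM over WT A to C. Every knockdown library was above every WT library, at 1.53-fold the WT level (log2 fold change 0.61, SE 0.12, adjusted p = 0.0014, edgeR). The gene lies on chromosome 11 from 101191115 to 101226463. Ezh2 ranged from 4.34 to 10.8 CPM in the knockdown and from 7.22 to 9.50 CPM in WT (-0.08, 95% interval -0.67 to 0.52, adjusted p = 0.846, edgeR). Cell cycle genes went both ways: of 20 tested 9 were called (45%, against 40.1% of all genes), 5 higher and 4 lower. There were 3 higher without knockdown C, and 2 lower without knockdown B, knockdown C, WT B or WT C. With library totals 8 were higher and 2 lower. The summed CPM of the cell cycle genes was 1861 to 2016 in the knockdown and 1805 to 2010 in WT, so the groups overlapped. Whether the cell cycle has a part in the Ezh1 value was not tested.

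Eed and Suz12 are the core subunits that bind the mark and hold the complex together. Eed was at 10.3, 15.5 and 15.6 CPM against 18.6, 15.3 and 15.3 CPM in WT, with knockdown B and C on WT B and C (-0.25, 95% interval -0.63 to 0.13, adjusted p = 0.278, edgeR). Suz12 had 7.68 to 15.2 against 14.9 to 24.2 CPM, a change of -0.64 (SE 0.24, adjusted p = 0.0512, edgeR) that fell just short of the threshold. It was called by DESeq2 (adjusted p = 0.0125), by limma-voom (0.0477), with a correction for GC content (0.0144), and without knockdown B (0.0148) or WT B (0.0258). The change was smaller without knockdown A (-0.40, adjusted p = 0.154) or WT A (-0.42, 0.186), and without both A libraries it was -0.18 (0.353).

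Kdm6b encodes the inducible H3K27 demethylase JMJD3. It had 26.5, 23.5 and 22.7 CPM against 19.8, 16.5 and 19.7 CPM, without overlap, and rose by 0.38 on the log2 scale (edgeR, SE 0.12, adjusted p = 0.0292). Leaving out knockdown A (edgeR, adjusted p = 0.0802), WT B (0.117), WT C (0.0614) or knockdown C (0.0551) ended that call. Of the 19 alternatives, 10 kept it, and leaving out both A libraries or using limma on FPKM did not. Kdm6a, the X-linked paralogue also known as UTX, had 5.92 ± 2.12 against 6.55 ± 2.30 CPM (SD, n = 3; -0.14, 95% interval -0.78 to 0.50). Of the 6 H3K27 genes 2 were called (33.3%, against 40.1% of all genes), both higher, while 4 of the 6 fold changes were negative. With knockdown A, knockdown C, WT B or WT C left out 1 was higher, and 1 was lower without knockdown B or WT B.

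Levels between genes were set side by side only per gene length, as the FPKM of the authors. Trim28 had a mean of 87.8 FPKM over the 6 libraries and Ehmt2 69.4 FPKM, and their ranges touched (73.5 to 97.5 and 62.3 to 74.6). Kdm5c followed at 21.6, Kdm4a at 14.1 and Dot1l at 12.6 FPKM. The remaining 32 expressed members lay between 0.214 FPKM for Nsd1 and 8.41 FPKM for Kdm4b, where most neighbours in the order overlapped. Kdm4a, at 9.68 ± 0.490 FPKM in the knockdown and 18.5 ± 1.11 FPKM in WT (SD, n = 3), had a mean below that of Dot1l in the knockdown and above it in WT. Setdb1, at 5.59 ± 0.562 and 8.34 ± 0.511 FPKM, lay in the same way below and above Kdm1a.

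The make-up of families was described as each gene's share of the FPKM summed over its family, which does not depend on how libraries are scaled. In the KDM4 family Kdm4a made up 51.6%, 55.9% and 54.9% over knockdown A to C and 63.6%, 66.8% and 65.4% over WT A to C, and Kdm4b 40.9% to 46.5% and 31.3% to 32.9%. The family sum was 17.9 FPKM in the knockdown and 28.3 FPKM in WT. In the SETD1 pair Setd1b made up 49.5% to 53.1% in the knockdown and 40.8% to 44.0% in WT. How reads in the 51.8% of Setd1a exonic bases shared with Gm49388 were counted is not described. If such reads were not assigned, the Setd1a share is too low in both groups, which was not tested. Kmt2c made up 2.34% to 2.57% of the KMT2 family in the knockdown and 3.42% to 4.52% in WT. For these the groups did not overlap, which was described and not tested.

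In the other 10 families the groups overlapped. Ehmt2 was 92.8% to 93.7% of the EHMT pair, Kdm5c at least 96.1% of the KDM5 family and Kdm1a 89.2% to 91.0% of the KDM1 pair in the 6 libraries. Ezh1 made up 86.4%, 70.3% and 74.7% of the EZH pair in the knockdown and 62.0%, 71.0% and 68.8% in WT, so WT B lay above knockdown B. Cbx1 held 51.1% to 64.6% of HP1 in the knockdown and 51.7% to 58.3% in WT.

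**Figure D3:**
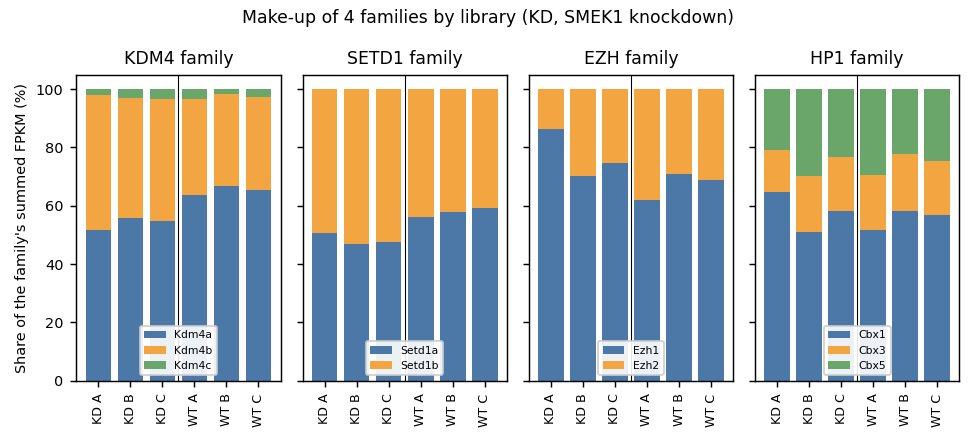
Stacked shares (%) of each gene in its family's summed FPKM, for 4 families in the 6 libraries (KD, SMEK1 knockdown). The Kdm4a share is 51.6% to 55.9% in the knockdown and 63.6% to 66.8% in WT, the Setd1a share is also lower in each knockdown library, and the EZH and HP1 shares overlap between groups.

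Libraries of one group differed among themselves in a way that many of the members shared. Each member's log2 CPM was set against its group mean. Within a group the deviations of a gene cancel out, so a gene low in one library is higher in another. Opposite values within a group, here and in the correlations below, are therefore not separate observations. In knockdown A 11 of the 13 members with a transcript GC content under 46% lay below their group mean, with a median of -0.41 and Ezh2 lowest at -0.71. In knockdown B all 13 lay above it, with a median of 0.33, and in WT A 12 lay above it (0.32). In WT B 11 lay below (-0.26). These 13 genes include Suz12, Ezh2, Kdm6a, Cbx3, Cbx5, Kdm5a, Setd2 and Setdb2.

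The 9 members with GC over 54%, such as Trim28, Ehmt2, Kdm6b and Setd1a, moved little, with medians between -0.06 and 0.10 in the 6 libraries. The GC classes also differed in counts. Kdm6b, the lowest of the 9, had 276 to 529 counts per library. Members under 46% GC included Setdb2 at 36 to 92, but also Cbx5 at 447 to 1032. What part of the deviations goes with count level was not tested. Across the 37 members, which share libraries and are not independent, Spearman's rho of the deviation with GC was 0.72 in knockdown A, -0.71 in knockdown B, -0.62 in WT A and 0.54 in WT B. Over all genes tested it was 0.49, -0.40, -0.19 and 0.19. With gene length the rho of the members was smaller, from -0.29 to 0.24. Over all genes the rho with length was -0.24 in knockdown A, 0.36 in knockdown B, 0.34 in WT A and -0.36 in WT B, which in both WT libraries is larger in size than that with GC. The fold changes between groups had a rho of 0.12 with GC among the members and of -0.01 over all genes. With a correction for GC 11 members were called, the 9 above together with Suz12 and Kdm5c, and with one for length also 11, the 9 above together with Suz12 and Setd1b.

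**Figure D4:**
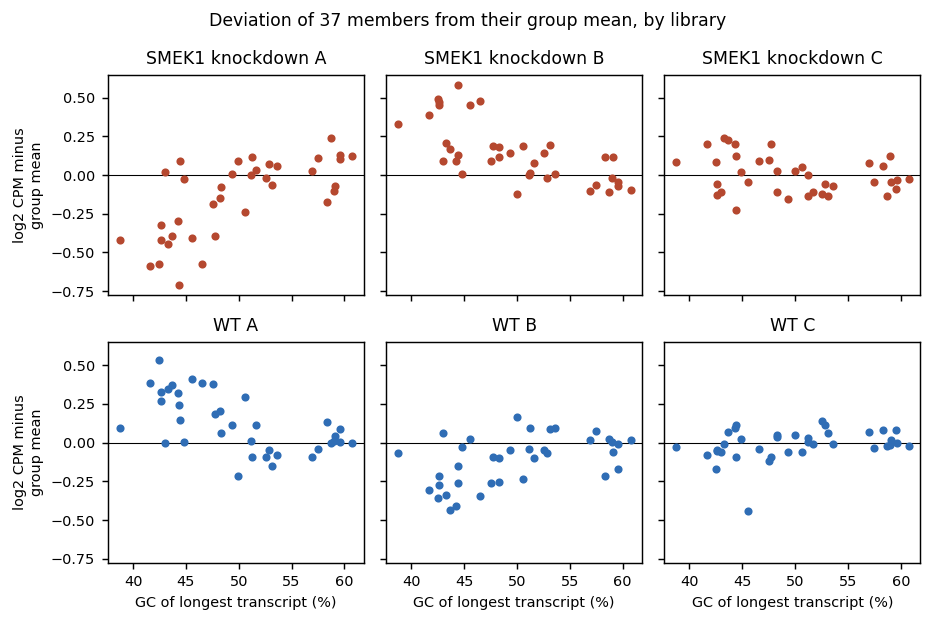
Deviation of log2 CPM from the group mean (y axis) against the GC content of the longest transcript (x axis, %) for the 37 tested members, 1 panel per library. Most members under 46% GC lie below 0 in knockdown A and WT B and above 0 in knockdown B and WT A, while members over 54% GC lie between -0.22 and 0.24 in all 6 libraries.

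Partners of these enzymes were called about as often as all genes. Of 145 listed 131 were tested and 52 called (39.7% against 40.1%), 29 higher and 23 lower. Over all genes 20.5% were called higher and 19.6% lower, and the counts of each list below stand beside those shares. Around H3K9, 2 of 14 tested genes were higher and 3 lower (1 lower without knockdown A or knockdown C, and 0 lower with library totals). Morc2a, an ATPase that works with the HUSH silencing complex, rose by 0.59 (SE 0.14), and the HUSH subunit genes Mphosph8 and Fam208a fell by 0.75 and fell by 0.95 on the log2 scale. Neither of these HUSH subunit genes was called lower without knockdown A, without knockdown C or with library totals. Pphln1, another HUSH subunit gene of the list, was not among the called genes. L3mbtl2, a Polycomb-related reader, rose by 0.43 (SE 0.09) and Prdm2 fell by 0.57 on the log2 scale (SE 0.15). Around H3K4, 4 of 22 were higher and 3 lower. Men1, the menin subunit of KMT2A and KMT2B complexes, fell by 0.66 on the log2 scale (SE 0.09), Kmt2e fell by 1.13 (SE 0.22) and Cxxc1, a SETD1 subunit that binds CpG islands, rose by 0.43 (SE 0.08).

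Polycomb partners had 7 of 29 higher and 2 lower (1 lower without WT B, WT C or knockdown C; 13 higher and 1 lower with library totals). Phf19, an accessory subunit of Polycomb repressive complex 2, went from 1.28 ± 0.311 CPM in WT to 4.87 ± 0.422 CPM in the knockdown (SD, n = 3; log2 fold change 1.92, SE 0.25, adjusted p = 0.000105, edgeR). Ring1, a ubiquitin ligase of Polycomb repressive complex 1, rose by 0.54 (SE 0.11), while Phc2 of the same complex fell by 0.60 on the log2 scale (SE 0.08). Of 16 genes around H3K36, H3K79 and H4K20, 3 were higher and 2 lower (1 lower without knockdown C or with library totals). Setd3, an actin histidine methyltransferase, rose by 0.55 (SE 0.08), Morf4l1, a reader of H3K36 methylation, rose by 0.45 (SE 0.10), and Mllt6 fell by 0.49 on the log2 scale (SE 0.08).

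Other JmjC proteins had 2 of 12 higher and 3 lower (5 lower without knockdown A). Riox2, a ribosomal histidine hydroxylase, rose by 0.84 (SE 0.11), Hspbap1 rose by 0.77 (SE 0.11), and Hif1an, which hydroxylates hypoxia-inducible factor, fell by 0.95 on the log2 scale (SE 0.10). Riox2 and Hspbap1 both lie on chromosome 16, and whether their values go with that position was not tested. Of 9 arginine methyltransferase genes 3 were higher and 1 lower (1 higher without WT A). Prmt3 rose by 0.59 (SE 0.10), Prmt2 rose by 0.29 (SE 0.09; adjusted p = 0.0581 without WT A) and Prmt5, the main symmetric dimethyltransferase gene, which like Mphosph8 lies on the stretch of chromosome 14 past 40 Mb, fell by 0.34 on the log2 scale (SE 0.08).

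DNA methylation genes had 5 of 17 higher and 3 lower (3 higher without WT B, and 1 lower without knockdown C or WT C; 0 lower with library totals). Dnmt3a, a de novo DNA methyltransferase, rose by 0.42 (SE 0.09) and Mbd1 rose by 0.54 (SE 0.09), while the maintenance enzyme gene Dnmt1 fell by 0.35 on the log2 scale (SE 0.08), a call that library totals ended (adjusted p = 0.11). Of the 8 partner lists, the genes that supply the methyl donor were called most often, 9 of 12 (75.0%, against 40.1% of all genes). Of these 9, 3 were higher and 6 lower (3 lower without knockdown C or WT C, or with library totals). That this list stood highest of the 8 was read from the results and was not tested. Shmt2, the mitochondrial serine hydroxymethyltransferase, fell by 0.58 (SE 0.08), its cytosolic counterpart Shmt1 fell by 0.65 (SE 0.09) and Ahcyl1 fell by 0.61 on the log2 scale (SE 0.09). Genes named as risen or fallen had an adjusted p under 0.05 by edgeR.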

How the data were processed

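RNA-seq was made from column-purified total RNA of BV2 cells with a SMARTER mRNA kit, per the labels' protocols. The authors deposited whole-number counts per gene and FPKM values. The genome build was GRCm38 (mm10), per the submitters' processing notes; not given in the sources used here are aligner, counter, strand setting and annotation. Groups come from the genotype label and the letters A, B and C from the titles.

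Counts were tested on the whole table with edgeR 4.0.16 in R 4.3.3 (filterByExpr, TMM, glmQLFit, glmQLFTest, no covariates), which kept 12269 genes. P-values were adjusted by Benjamini-Hochberg over these, and genes called at an adjusted p under 0.05. SE is the fold change over the square root of F; intervals are 95% and approximate. The script was tested on simulated data. Deviations used log2 CPM with a prior count of 2, and GC content the longest GENCODE M21 transcript. Alternatives used DESeq2 1.42.0 and limma 3.58.1, with 1 or 0.1 added to FPKM before log2; leaving out both A libraries and the GC correction were added after the data were seen. The genes, gene lists and tests were chosen with earlier results of these data known. Values by library are printed for called members and for the uncalled member of highest FPKM in each residue group, and each partner list names its 3 called genes of smallest adjusted p. The HUSH genes Mphosph8 and Fam208a were named after their values were seen.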

Additional observations from a re-analysis of the deposited data

How the results depend on the processing

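The 9 called members kept their direction under each of the 19 alternatives run (17 for Kmt2c, which the FPKM filter left out), and 3 of them (Kdm4a, Setdb1 and Ezh1) kept their call. Of the 28 members not called, 18 were never called and 10 were called by at least 1 alternative; 41 changes of sign occurred, each in a gene called neither way. Members called (9 in all, 2 higher and 7 lower) numbered 5 (1 and 4) with limma on log2(FPKM + 1) or log2(FPKM + 0.1) at a mean FPKM of at least 0.5, and 4 (1 and 3) on log2(FPKM + 1) without that filter, where partner calls went from 52 to 34. With library totals 5 were higher and 3 lower. At an adjusted p under 0.01 there were 4 (1 and 3), and 3181 of the 4918 calls over all genes. Leaving out 1 library gave 4 to 11 members, 1 to 2 higher and 3 to 10 lower; without both A libraries there were 9, of which 6 were among the 9 above. The cause of these differences was not tested, beyond the stricter threshold and the smaller groups. With the letter as a replicate block 4 members were called, 1 higher and 3 lower. The letters are not shown to pair the libraries: deviations of same-letter libraries correlated at -0.36 (A), -0.33 (B) and 0.00 (C) across genes, and no library correlated best with its own letter in the other group. Intervals over 1 wide on the log2 scale occurred at low level (Nsd1, Kdm4c) and also at higher level (Suz12); what depth alone sets was not tested.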
